A study of Homo sapiens with 7 samples.

Results

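The transcription factor MYC, its binding partner MAX and 32 genes that make ribosomes in the nucleolus were followed across RNA sequencing libraries of the human monocytic leukemia line U937. The 34 genes were taken from a list of names and not by a threshold on these data, though earlier results of these data were known when the list was made. All 34 were found among the 26364 gene symbols of the count tables, and all 34 passed the filter on low counts that 13521 symbols passed. MT_mock held 3 libraries of U937 MT, the parental cells. B412_mock held 2 libraries of U937 B412, a derivative in which zinc turns on the fusion protein PLZF/RARA. B412_GSK126 held 2 libraries of the B412 line treated with GSK126, which blocks the catalysis of EZH2, a methyltransferase of histones. All 7 libraries carried 0.1 mM ZnSO4, so no group was free of zinc. Zinc was on the B412 cells for 24 h before GSK126 was added, and the drug then stayed on for 96 h at 2.5 µM, together with zinc. For the mock libraries no time in zinc was recorded here. The series as a whole asks what EZH2 does in the resistance of PLZF/RARA leukemia to retinoic acid, and none of these libraries was labelled as treated with retinoic acid. The labels name neither the vector of the fusion nor whether B412 is 1 clone. They also do not say that replicates were separate cultures, so the p-values speak for the spread among these libraries alone, and that spread may be technical.

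A ribosome is built in the nucleolus. RNA polymerase I copies the ribosomal DNA into one long precursor RNA, small nucleolar RNAs held in protein complexes (snoRNPs) guide its chemical modification, and assembly factors fold and cut it into the small and the large subunit. MYC binds DNA as a pair with MAX at a motif called the E-box and is known for raising the transcription of many genes of this pathway, including that of the polymerase itself. In acute myeloid leukemia lines MYC is a driver of growth, and a fall of MYC and of ribosome production is a usual part of their differentiation.

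Total counts lay between 12736244 and 14848130 per library, and the least abundant member value was 119 counts, for BOP1 in B412_mock replicate 1. Levels below are CPM, counts brought to a common library total after TMM scaling, which assumes that most genes are equal between libraries. ZBTB16, the gene that encodes PLZF, had 0 to 4 counts in the MT libraries and 7 to 36 in the B412 libraries. The myeloid genes SPI1 (84.7 to 135 CPM), CD33 (18.8 to 41.7 CPM) and MPO were present in all 7 libraries, while the monocyte receptor CSF1R, at 0.143 to 0.61 CPM, was near 0. Of the lymphoid, erythroid, fibroblast and epithelial markers, CD8A, MS4A1 and COL3A1 were at 0 in every library. The libraries fell into sets that the labels do not name. The leading principal component over 13355 genes that are in no list used here held 65.6% of the variance. On one side of it (set 1) lay replicate 1 of each group and replicate 2 of MT_mock. On the other (set 2) lay replicate 3 of MT_mock and replicate 2 of B412_mock and of B412_GSK126. Each set held all 3 groups, so every comparison is given without and with a term for the set. The spread of a gene between libraries that a group mean leaves over (the biological coefficient of variation) was 58.3% without that term and 21.9% with it. The sets were drawn from these same libraries, so a smaller spread with the term was built in and says nothing for the sets. Standard errors and p-values with the term take the sets as known.

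The E-box CACGTG reads the same on both strands, and its presence near the start of the members is shown first, because it is the sequence that MYC and MAX recognise. Promoters of 300 bases, from 250 before to 50 after the annotated start, were matched by symbol in RefSeq (GRCh38.p14) for 27 of the 34 members, and 9 of the 27 (33.3%) held the motif. So did 36 of 106 promoters (33.96%) of the other listed genes of the pathway. The motif was in 1001 of 9714 promoters (10.3%) of the genes tested here and in 1407 of 15843 (8.88%) of all protein-coding genes. Each line below gives the motif in capitals with 9 bases on either side, 5′ to 3′ on the strand of the gene.
FBL, chr19:39846359-39846382, minus strand: gctcttttcCACGTGcgaaagccc
RRP9, chr3:51941895-51941918, minus strand: ttcagctgcCACGTGagttctgcg
WDR43, chr2:28894661-28894684, plus strand: acggacgaaCACGTGgctgcagcg
NOP14, chr4:2963377-2963400, minus strand: gcggcccggCACGTGtcttagggt
UTP20, chr12:101280086-101280109, plus strand: ttttccgtcCACGTGacccactca
BYSL, chr6:41921518-41921541, plus strand: ttcagtcccCACGTGcgatccttc
PES1, chr22:30591883-30591906, minus strand: ttggcagggCACGTGcgggaggaa
NOP2, chr12:6568242-6568265, minus strand: tccggattgCACGTGgagggccgc
MRTO4, chr1:19251810-19251833, plus strand: cttccgccgCACGTGgattcagcg

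The motif lay just after the annotated start in 7 of the 9 promoters (77.8%), against 115 of 1001 (11.5%) among the tested genes that hold it. In RRP9 it began 5 bases before the start and in UTP20 10 bases before it, and in NOP2 it began 36 bases after. For BYSL and MRTO4, both counted as after the start, that start was not matched to a transcript start of GENCODE v29, so their positions are less certain. For the others the check was that a transcript began somewhere in the promoter, which does not place the start to within a few bases. The motif was found in box C/D proteins and in both subunit assembly groups, and in no matched promoter of the other groups. A match is only a string of letters: no binding of MYC was measured in these libraries.

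The members differed widely in level, and roles were mixed along the order. Divided by exon length, the highest mean level over the 7 libraries was that of FBL, the methyltransferase of the box C/D snoRNPs, at 547 CPM per kilobase. NHP2, a core protein of the box H/ACA snoRNPs, followed at 302, then the histone chaperone NPM1 at 249 and nucleolin (NCL) at 211 CPM per kilobase. The large subunit factor MRTO4 stood at 138, MYC at 66.3, the snoRNP protein GAR1 at 32.4 and MAX at 15.5 CPM per kilobase. The lowest were WDR12 (3.45), POLR1A (2.74) and UTP20 (2.34). Summed over the 34 genes, the level was 7304, 6382 and 3580 CPM in MT_mock replicates 1 to 3, 7018 and 3776 CPM in B412_mock replicates 1 and 2, and 7199 and 4910.2 CPM in B412_GSK126 replicates 1 and 2. The 3 libraries of set 2 had the 3 lowest sums, whatever their group.

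**Figure D1:**
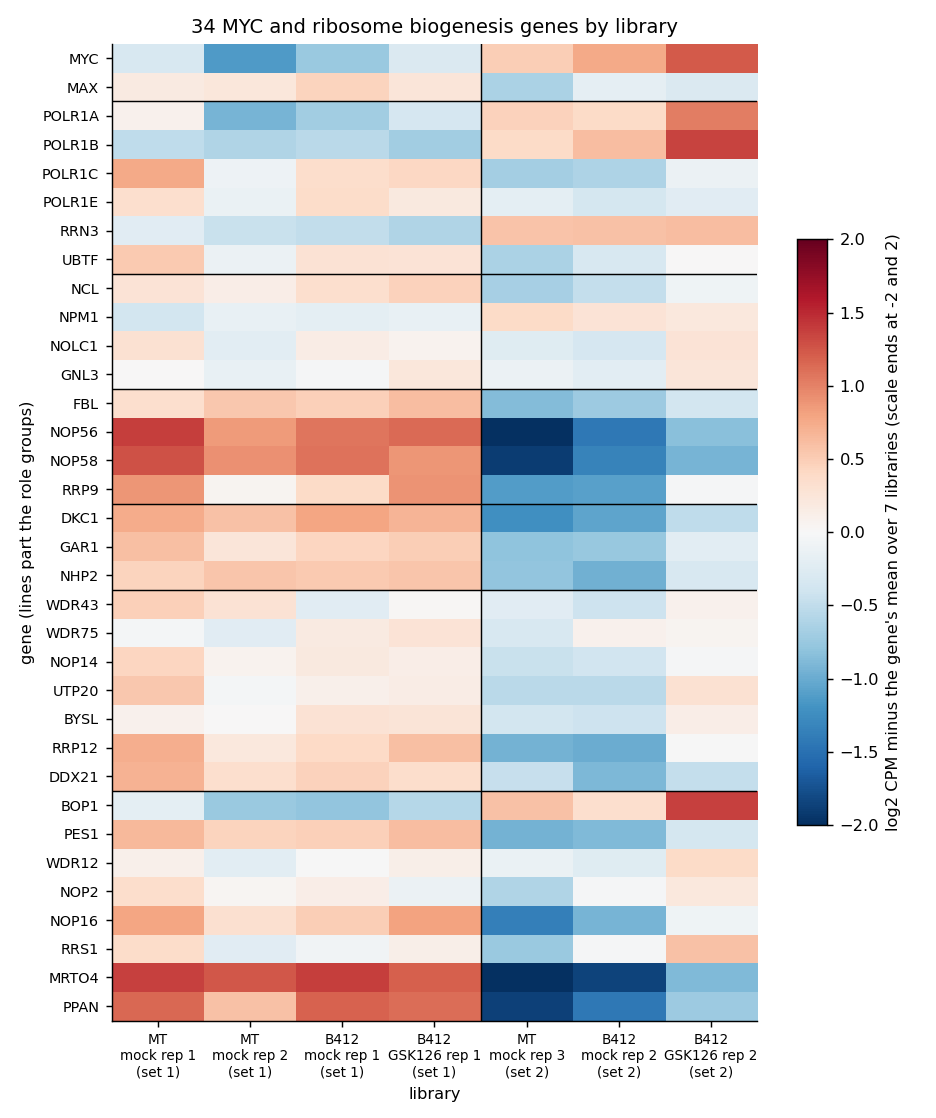
Log2 CPM of the 34 genes (rows, in role groups parted by lines) in the 7 libraries (columns, set 1 left of the vertical line), each as its difference from the mean of that gene. Most rows are red in set 1 and blue in set 2, while MYC, POLR1A, POLR1B, RRN3, NPM1 and BOP1 are the other way round.

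MYC measured 137, 78.0 and 241 CPM in MT_mock replicates 1 to 3. It measured 103 and 291 CPM in B412_mock replicates 1 and 2, and 141 and 402 CPM with GSK126. All 3 libraries of set 2 were above all 4 of set 1, and within either set the GSK126 library was the highest. MAX went the other way between the sets: it measured 70.2, 72.6 and 39.9 CPM in MT_mock, 84.0 and 54.6 CPM in B412_mock, and 73.4 and 50.8 CPM with GSK126. Within either set the B412_mock library had the highest MAX level.

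The 6 RNA polymerase I genes did not form one pattern. POLR1A, the largest catalytic subunit, measured 33.6, 16.7 and 43.5 CPM in MT_mock, 19.6 and 41.4 CPM in B412_mock, and 25.2 and 64.4 CPM with GSK126. POLR1B, the other large subunit, ran from 14.2 to 16.2 CPM in set 1 and from 29.9 to 58.9 CPM in set 2. RRN3, the factor that brings the polymerase to the promoter, ran from 13.7 to 17.9 CPM in set 1 and from 30.8 to 32.1 CPM in set 2. These 3 genes were higher in set 2, as MYC was; the level of RRN3 is uncertain, because near-identical copies (RRN3P1, RRN3P2 and RRN3P3) share its sequence. POLR1C, a subunit shared with RNA polymerase III, was lower there, at 16.8 to 24.7 CPM against 25 to 45.5 CPM, and so was the subunit POLR1E, at 49.8 to 55.5 CPM against 57.7 to 81.5 CPM. UBTF, which opens and marks active ribosomal DNA, measured 239.9, 154 and 107 CPM in MT_mock, 204 and 134 CPM in B412_mock, and 201 and 168 CPM with GSK126, with overlap between the sets.

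NCL, which binds nascent precursor RNA, measured 996, 906 and 521 CPM in MT_mock, 1034 and 594 CPM in B412_mock, and 1136 and 779 CPM with GSK126. NPM1 was the only nucleolar structural protein higher in set 2, at 736 to 835 CPM against 494 to 577 CPM. NOLC1, a chaperone of snoRNPs, ran from 116 to 179.6 CPM over all libraries. GNL3, the GTPase nucleostemin, was steady: it measured 134, 119.8 and 123 CPM in MT_mock, 131 and 115 CPM in B412_mock, and 155 and 157 CPM with GSK126. Both GSK126 libraries lay above the other 5.

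All 7 snoRNP proteins were lower in set 2. FBL measured 737, 849.6 and 323 CPM in MT_mock, 819 and 353 CPM in B412_mock, and 904 and 453 CPM with GSK126. NOP56 and NOP58, the paired scaffolds of the box C/D particle, ran from 486 to 703 CPM and from 267 to 351 CPM in set 1, and from 59.8 to 150.4 CPM and from 38.8 to 76.0 CPM in set 2. RRP9, a protein of the snoRNP needed for the first cuts of the precursor, measured 114, 64.6 and 28.6 CPM in MT_mock, 80.7 and 29.3 CPM in B412_mock, and 115 and 61.2 CPM with GSK126. DKC1, the pseudouridine synthase of the box H/ACA particle, measured 595, 535 and 152 CPM in MT_mock, 618 and 173 CPM in B412_mock, and 570.1 and 250.4 CPM with GSK126. Its partners GAR1 (45 to 58.2 CPM in set 1, 22.0 to 33.1 CPM in set 2) and NHP2 (327 to 352 CPM in set 1, 123 to 192 CPM in set 2) had the same order of sets.

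The small subunit factors were less spread. WDR43, a scaffold of the earliest processome, measured 104, 90.8 and 63.3 CPM in MT_mock, 63.5 and 55.4 CPM in B412_mock, and 75.1 and 78.5 CPM with GSK126. Its neighbour in that particle, WDR75, measured 34, 30 and 28 CPM in MT_mock, 39.8 and 37.0 CPM in B412_mock, and 42.2 and 36.2 CPM with GSK126. For WDR75 both B412_mock libraries lay above the 3 MT_mock libraries. The processome proteins NOP14 and UTP20 ran from 48.5 to 89.2 CPM and from 14.1 to 29.8 CPM, and the late assembly factor BYSL from 34.6 to 56.0 CPM. Of these, only NOP14 was lower in set 2 without overlap. DDX21, an RNA helicase that joins transcription of the precursor to its processing, was more abundant and ran from 137 to 184 CPM in set 2 and from 320.2 to 414 CPM in set 1. RRP12, a factor for maturation and export of the subunit, measured 93.7, 65.6 and 29.4 CPM in MT_mock, 74.5 and 28.2 CPM in B412_mock, and 85.5 and 56.2 CPM with GSK126.

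The large subunit factors held the extremes. MRTO4, a placeholder for a protein of the ribosomal stalk, measured 529.7, 489 and 37.9 CPM in MT_mock, 539 and 57.2 CPM in B412_mock, and 470.5 and 112 CPM with GSK126. PPAN, needed for maturation of large subunit RNA, had 116 to 175 CPM in set 1 and 21.1 to 46.5 CPM in set 2. The 3 proteins of the PeBoW complex differed: PES1 was lower in set 2 (73.8 to 111 CPM against 195 to 225 CPM), BOP1 was higher (21.8 to 44.4 CPM against 9.97 to 15 CPM), and WDR12 lay between 23.4 and 36.0 CPM in all libraries. NOP16, an assembly factor, measured 108, 77.7 and 24.1 CPM in MT_mock, 87.4 and 32.7 CPM in B412_mock, and 109.6 and 58.7 CPM with GSK126. The methyltransferase NOP2 (21.6 to 41.7 CPM) and the assembly factor RRS1 (19.6 to 49.3 CPM) overlapped between the sets. PPAN is uncertain, because its exons also belong to the read-through gene PPAN-P2RY11, which had its own 556 to 4075 counts per library, and reads of the shared exons cannot be placed.

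The sets differed more than the groups did: the differences between sets ran from -3.02 to 1.41 on the log2 scale over the 34 members, and those of B412_GSK126 minus B412_mock, fitted with the set term, from -0.15 to 0.80. The mean log2 difference, set 2 minus set 1 within groups, had a median of -0.52 over the 34 genes and 0.05 over all 13521 genes tested. It was below 0 for 28 of the 34 members and for 6534 of the 13521. In 18 members every set 2 library was below every set 1 library, as in 29.2% of all tested genes, and in 6 members (MYC, POLR1A, POLR1B, RRN3, NPM1 and BOP1) every one was above, as in 30.2%. Scaled to total counts in place of TMM, 13 members were lower without overlap (24.8% of all genes) and 6 higher (35.3%); POLR1C, POLR1E, NCL, RRP9 and NOP14 then overlapped. The sets were defined from the data, on genes other than these, and their difference is given with no test.

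By role, the median difference was -1.86 for the box C/D proteins, -1.22 for the box H/ACA proteins and -0.74 for the large subunit factors. It was -0.42 for the small subunit factors, -0.13 for NCL, NPM1, NOLC1 and GNL3 together, and 0.29 for the RNA polymerase I group. MRTO4 was 8.1-fold, NOP56 6.02-fold, NOP58 5.31-fold, PPAN 5.25-fold and DKC1 3.12-fold higher in set 1. MYC was 2.66-fold, POLR1B 2.59-fold, BOP1 2.57-fold, POLR1A 2.14-fold and RRN3 2.08-fold higher in set 2. MYC and the snoRNP genes lay on opposite sides of this difference. Further genes of these processes, which are not members, differed from list to list. Among 34 other large subunit factors the median was -0.98, with 23 lower without overlap and 1 higher. Among 32 other small subunit factors it was -0.22, with 13 lower and 7 higher. Among 9 other snoRNP proteins and assembly factors it was -0.27, with 3 lower and 2 higher, up to 2.05. Among 17 other subunits and factors of RNA polymerases I and III it was -0.26, with 8 lower and 1 higher. The 6 polymerase members had 2 lower and 3 higher. The shares over all tested genes are the 29.2% and 30.2% given above.

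Marker levels and gene length were set beside this difference. Of the 10 markers of the monocytic line, CD33, LYZ and CD4 were higher in set 2 without overlap, as were 30.2% of all tested genes. The 10 summed to 2732, 1999 and 6878 CPM in MT_mock, 895.96 and 2456 CPM in B412_mock, and 1507 and 4564 CPM with GSK126. Most of that sum was MPO. Within each group the set 2 library was the highest, though the sums of the sets overlapped. The T, B and NK cell markers summed to 26.4 to 104 CPM in set 1 and 31.2 to 47.4 CPM in set 2, nearly all of it NKG7, with CD8A and MS4A1 at 0. The fibroblast and epithelial markers summed to 0.07 to 3.61 CPM in set 1 and 0.785 to 2.57 CPM in set 2. The erythroid sum, nearly all of it KLF1, was 2.87 to 7.87 CPM in set 1 and 0.785 to 2.17 CPM in set 2, with no overlap. Longer genes tended to be higher in set 2: Spearman's rho between exon length and the difference was 0.39 over the 34 members and 0.31 over 11498 genes tested, all from the same 7 libraries. The part of these measures in the difference between the sets was not tested. In bulk RNA, fewer cells of a kind and less RNA per cell cannot be told apart.

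The first comparison asks how the cells with PLZF/RARA differ from the parental cells in zinc. No member passed the test: with edgeR (quasi-likelihood, Benjamini-Hochberg over all 13521 genes, threshold 0.05), 0 of 34 were called without the set term, where 0% of all genes were called, and 0 of 34 with it, where 2.35% were. At an unadjusted p under 0.05 the count was 0 without the term and 1 with it, WDR43, against 2.54% and 14.6% of all genes. DESeq2 and limma-voom called 0 members too, with and without the term. The median log2 difference of the members, B412_mock minus MT_mock, was -0.07 without and 0.03 with the term, against -0.01 for all genes in either fit, and 17 of 34 were above 0 with the term (48.9% of all genes). Leaving out each library in turn, that median lay between -0.44 and 0.24 without the term and between -0.15 and 0.17 with it.

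WDR43 had the smallest p of the members in this comparison. From the levels above, its log2 difference with the set term was -0.47 ± 0.19 (SE; unadjusted p = 0.0329, edgeR adjusted p = 0.284), with -0.61 within set 1 and -0.19 within set 2. WDR75 stood at 0.36 ± 0.19 (edgeR adjusted p = 0.423), with 0.32 and 0.40 within the sets, and was the only member whose 2 B412_mock libraries were both above all MT_mock libraries, as in 5.37% of all genes. MAX stood at 0.31 ± 0.17 (edgeR adjusted p = 0.432), with 0.23 and 0.45 within the sets. MYC was close to no difference, at 0.07 ± 0.22 (edgeR adjusted p = 0.932), with -0.01 and 0.27 within the sets. Without the term it was 0.37 ± 0.71. In both sets alike, 11 members were higher in B412_mock (31.8% of all genes) and 5 were lower, POLR1A, WDR43, RRP12, DDX21 and BOP1 (32.1% of all genes).

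The second comparison asks what GSK126 does in the PLZF/RARA cells. No member passed the test, and with the set term most member values lay a little above 0. With edgeR (quasi-likelihood, Benjamini-Hochberg), 0 of 34 were called in either fit, and 0% of all genes were called in either fit; DESeq2 and limma-voom called 0 members as well. At an unadjusted p under 0.05, 3 members were higher with the set term and none lower, RRP9, RRP12 and NOP16, against 2.2% of all genes higher and 1.23% lower. Without the term no member was higher, against 0.229% of all genes. The median log2 difference, B412_GSK126 minus B412_mock, was 0.22 without and 0.32 with the term, against -0.01 and 0.01 for all genes. With the term 30 of 34 members were above 0 (51.8% of all genes); POLR1E, RRN3, NPM1 and MAX were not. Without B412_GSK126 replicate 2 that count was 18 of 34.

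The values were larger in set 2. The median over the members was 0.05 within set 1 and 0.53 within set 2. With the term it was 0.05 without B412_GSK126 replicate 2 and 0.22 without B412_mock replicate 2, and 0.56 without B412_GSK126 replicate 1. Without the term, leaving out B412_mock replicate 2, which leaves that group a set 1 library alone, turned the direction: the median was -0.07, with 13 of 34 members above 0 and 0.10 for all genes. Leaving out B412_GSK126 replicate 1 gave a median of 0.03, with 18 of 34 above 0. In both sets alike, 18 members were higher with GSK126 (28.3% of all genes) and only MAX was lower (28.4%). The 18 were MYC, POLR1A, POLR1C, NCL, GNL3, FBL, NOP56, RRP9, GAR1, NHP2, WDR43, UTP20, RRP12, BOP1, PES1, WDR12, NOP16 and RRS1. For GNL3, WDR43, UTP20, WDR12 and RRS1 both GSK126 libraries were above both B412_mock libraries (7.04% of all genes), and on the total-count scale this held for 4 of them, without RRS1.

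RRP9 had the largest difference of the members with the term, 0.80 ± 0.27 on the log2 scale (unadjusted p = 0.0127, edgeR adjusted p = 1), with 0.52 within set 1 and 1.06 within set 2. RRP12 stood at 0.61 ± 0.25 (unadjusted p = 0.0321), with 0.20 and 0.99 within the sets, and NOP16 at 0.61 ± 0.26 (unadjusted p = 0.0368), with 0.33 and 0.84. The edgeR adjusted p was 1 for these as for every member. MYC stood at 0.46 ± 0.23 (edgeR unadjusted p = 0.0718), 1.38-fold. It was alone among these in having the same size in the sets, 0.46 and 0.47. Each such value within a set is 1 GSK126 library against 1 B412_mock library. MYC measured 137 and 78.0 CPM in MT_mock replicates 1 and 2, both of set 1. MAX stood at -0.15 ± 0.18, with -0.20 and -0.10. The snoRNP enzymes FBL (0.25 ± 0.15) and DKC1 (0.23 ± 0.18) and the structural protein NCL (0.27 ± 0.14) lay within 2 standard errors of 0 and missed the test. MRTO4, which the sets part most, went both ways: -0.20 within set 1 and 0.96 within set 2. The 9 members with an E-box had a median of 0.34 and the 18 matched members without one a median of 0.30.

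**Figure D2:**
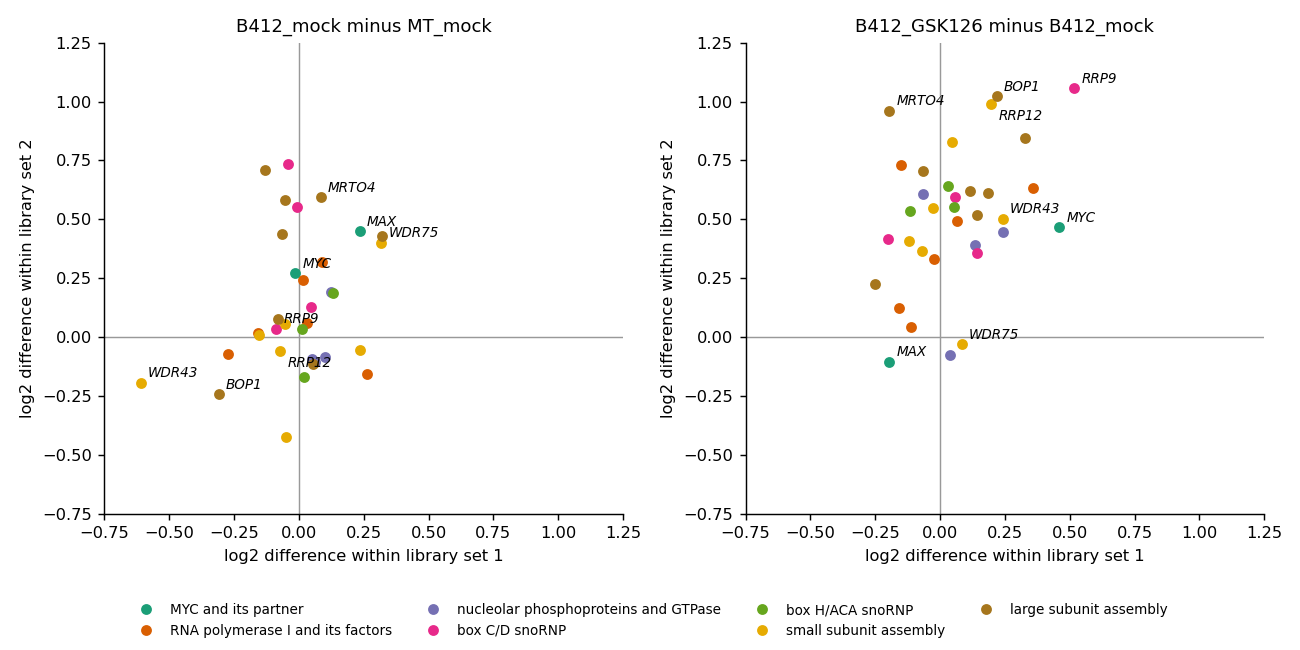
Log2 difference of each of the 34 genes within set 1 (horizontal axis) and within set 2 (vertical axis), for B412_mock minus MT_mock (left) and B412_GSK126 minus B412_mock (right), coloured by role. On the right, nearly all points lie above the horizontal line but on either side of the vertical line, with RRP9 and MYC farthest to the right and MAX the only gene below 0 on both axes.

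The third comparison, B412_GSK126 against MT_mock, shares its libraries with each of the others and adds none. With edgeR (quasi-likelihood, Benjamini-Hochberg), 0 of 34 members were called without the term (0% of all genes) and 0 with it (1.9% of all genes). DESeq2 and limma-voom called 0 members with and without the term. With the term 7 members were higher at an unadjusted p under 0.05, MYC, NCL, GNL3, FBL, RRP9, NOP16 and PPAN, and none lower, against 6.83% of all genes higher and 8.17% lower. NCL had the smallest edgeR adjusted p of the members, 0.162, at 0.40 ± 0.13. MYC stood at 0.53 ± 0.22 (edgeR adjusted p = 0.271), with 0.45 and 0.74 within the sets, and RRP9 at 0.69 ± 0.25 (edgeR adjusted p = 0.212). The median log2 difference of the members, B412_GSK126 minus MT_mock, was 0.10 in the fit lacking the term. With the term it was 0.32, and 30 of 34 members were above 0 (50% of all genes). Without the term the direction turned in 2 fits that left out a library: the median was -0.13 without MT_mock replicate 3 (13 of 34 above 0) and -0.10 without B412_GSK126 replicate 1 (15 of 34). It also turned with the replicate number as a block, at -0.12 (12 of 34). In both sets alike, 22 members were higher than in MT_mock (30.7% of all genes), and DDX21 alone was lower (29.6%). For GNL3, WDR75, BYSL and WDR12 both GSK126 libraries were above all 3 MT_mock libraries (6.13% of all genes), and on the total-count scale this held for 3 of them, without WDR12.

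Single libraries and the filter decided whether members were called here. Without MT_mock replicate 1 and with the term, edgeR called 4 members higher: MYC at 0.80 ± 0.15 (adjusted p = 0.0133), RRP9 at 0.98 ± 0.19 (adjusted p = 0.0162), NOP16 at 0.89 ± 0.21 (adjusted p = 0.0348) and PPAN at 0.85 ± 0.21 (adjusted p = 0.04). All genes called rose from 257 of 13521 tested to 693 of 13351 in that fit. That fit left each group 1 library in each set. MT_mock replicate 1, the library left out, was above replicate 2 of the same set for all 4 members. Without B412_GSK126 replicate 1, which leaves that group 1 library, MRTO4 stood at 1.40 ± 0.21 with the term. With no filter on low counts and the term, 6 members were called, MYC, NOP56, RRP9, NOP16, MRTO4 and PPAN, with 892 of the 18734 genes then tested.

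Beyond the members, 122 further genes of the pathway were listed, of which 121 were found and 119 tested. With the set term 1 of the 119 passed edgeR's test in B412_mock against MT_mock, against 2.35% of all genes. It was TWISTNB (now POLR1F), a stalk subunit of RNA polymerase I, which measured 316, 319 and 86.5 CPM in MT_mock, 846 and 169 CPM in B412_mock, and 469.5 and 191 CPM with GSK126. In each set the B412_mock library was above the MT_mock libraries, and the log2 difference was 1.2 ± 0.19 (edgeR adjusted p = 0.00662), with 1.41 and 0.96 within the sets. Without the term it was 1.08 ± 0.84 (edgeR adjusted p = 1), and without B412_mock replicate 1 the adjusted p with the term was 0.57. None of the 6 polymerase members passed beside it, and their values in the same fit ran from -0.26 for POLR1A to 0.14 for UBTF.

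In B412_GSK126 against B412_mock 0 of the 119 passed, and 11 were higher and 2 lower at an unadjusted p under 0.05 with the term (2.2% and 1.23% of all genes). The 18 MYC targets that work outside the nucleolus had 16 values above 0 (51.8% of all genes), a median of 0.26 and 14 genes higher in both sets (28.3% of all genes). Among them, HSPE1, a mitochondrial chaperonin, stood at 0.76 ± 0.21 (unadjusted p = 0.00327) and ODC1, the first enzyme of polyamine synthesis, at 1.03 ± 0.35 (unadjusted p = 0.019). ODC1 measured 162, 118 and 80.2 CPM in MT_mock, 114 and 136 CPM in B412_mock, and 184 and 326 CPM with GSK126, and both GSK126 libraries lay above the other 5. In the 9 tested genes of the MYC and MAX network the median was -0.15 and 3 were above 0. The 2 lower genes were MXD1 and MXD4, which pair with MAX in place of MYC and repress: MXD1 stood at -0.80 ± 0.30 (unadjusted p = 0.0197) and MXD4 at -0.52 ± 0.20 (unadjusted p = 0.0233), and edgeR's adjusted p was 1 for both. These 4 genes were named after their values were seen.

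MXD4 measured 61.3, 60.7 and 75.3 CPM in MT_mock, 44.0 and 58.9 CPM in B412_mock, and 36.5 and 34.4 CPM with GSK126. Both GSK126 libraries were below the other 5. In B412_GSK126 against MT_mock with the term, edgeR called 1 of the 119 further genes higher and 1 lower, against 1.9% of all genes. MXD4 was the lower one, at -0.92 ± 0.19 (edgeR adjusted p = 0.0304), with -0.74 and -1.13 within the sets. That call held without MT_mock replicate 1 (adjusted p = 0.0224) and was lost without any other library (adjusted p = 0.0505 to 0.322). TWISTNB passed there too, at 0.87 ± 0.19 (edgeR adjusted p = 0.0415), and lost that call without any library other than MT_mock replicate 1 or B412_GSK126 replicate 1 (adjusted p up to 0.406). The other listed snoRNP, small subunit and large subunit factors had medians of 0.14, 0.10 and 0.17 in B412_GSK126 against B412_mock, against 0.32 for the members, and the difference between these medians was not tested.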

How the data were processed

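RNA of 7 U937 libraries in 3 groups was sequenced; groups and replicate numbers come from the sample titles. Per the labels' protocols, the SMART-Seq v3 Ultra Low Input kit gave the cDNA, which was sheared and went into NEBNext Ultra DNA libraries; these mark no strand, so reads of genes that overlap head to head or tail to tail stay together. The submitters' processing notes name hg19, featureCounts, Subread and FastQC; for versions and annotation, the sources used here give nothing. Each group has 1 table of raw counts by gene symbol, whole numbers as the authors deposited them.

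The 34 members and the other lists were chosen with earlier results of these data known. Counts were filtered (filterByExpr, minimum count 10, minimum total 15; 13521 genes kept, 12843 left untested), scaled (TMM) and compared by edgeR 4.0.16 in R 4.3.3 (quasi-likelihood, robust, two-sided, 1 fit of 7 libraries, group means, Benjamini-Hochberg over all genes, threshold 0.05). A second fit added the library set, taken from the sign of the leading principal component of log2 CPM values with a prior count of 2. Residual degrees of freedom were 4 and 3. DESeq2 1.42.0, limma-voom (limma 3.58.1), other scalings, no filter, a replicate block and leaving out each library were alternatives; where that leaves a group with 1 library, the library is assumed to vary like those of the other groups. Members described in full are the listed genes; other genes are named where they passed the test, unless said otherwise. A floor of 3 counts was 0.202 to 0.236 CPM of the total counts; no molecular identifiers are named, so it covers counting error only. Replicates differed beyond sampling noise in every pair. Of 156 listed names, 150 matched by symbol and 5 by an older symbol, and POLR1G was not matched to 1 symbol. The reference at hand is of a later build than hg19, so it served only for symbols, exon lengths (GENCODE v29) and RefSeq promoters, whose coordinates are GRCh38.p14. The scripts were tested on simulated data.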

Additional observations from a re-analysis of the deposited data

How the results depend on the processing

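In B412_mock against MT_mock and in B412_GSK126 against B412_mock, 0 members were called under every alternative run. In B412_GSK126 against MT_mock, leaving out 1 library gave 0 to 4 members called, and no filter on low counts with the library-set term, an alternative chosen after seeing the data, gave 6; the cause was not tested. Leaving out each library in turn, the median log2 difference of the members lay between -0.44 and 0.24 (with the set term -0.15 and 0.17) in the first comparison, between -0.07 and 0.56 (0.05 and 0.56) in the second, and between -0.13 and 0.40 (0.06 and 0.57) in the third. Under the other settings it lay between -0.31 and 0.05, 0.20 and 0.34, and -0.12 and 0.35. With the replicate number as a block the medians were -0.31, 0.28 and -0.12, with 0 members called in each. No label says that a number marks a shared culture or day. Deviations of replicates 1 and 2 correlated at 0.847 between the B412 groups, where replicate 1 is in set 1 and replicate 2 in set 2, and at 0.0474 and 0.0148 between MT_mock and these, over 13521 genes. Counts over all genes moved more. In the first comparison edgeR called 0 genes, DESeq2 95, no filter 5, and with the set term edgeR called 318, DESeq2 684 and limma-voom 295. In the second, edgeR called 0, and with the set term DESeq2 called 4, limma-voom 1, a fit of the 2 groups alone 14 and no filter 34. In the third, edgeR called 0 and DESeq2 65, and with the set term edgeR called 257, DESeq2 604 and limma-voom 318. Each member had at least 119 counts per library.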

Other observations

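The copies of RRN3 had low counts, which did not follow those of RRN3. RRN3P3 had 99, 78 and 23 counts in MT_mock replicates 1 to 3, 135 and 23 in B412_mock, and 83 and 27 with GSK126, so it was lower in each set 2 library, while RRN3 itself was higher there. RRN3P1 had 4 to 43 and RRN3P2 8 to 27 counts per library. How the authors placed reads that fit RRN3 and a copy alike is not given in what was used here.

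EZH2, the target of GSK126, was lower in set 2, as the snoRNP genes were and MYC was not. It measured 83.1, 96.9 and 25 CPM in MT_mock replicates 1 to 3, 77.1 and 29.2 CPM in B412_mock, and 90.3 and 43.8 CPM with GSK126. All 3 set 2 libraries lay below all 4 of set 1, as in 29.2% of all tested genes. Within set 2 the GSK126 library had the highest value, as it did for NOP56, NOP58, DKC1, FBL and MRTO4. That library was above B412_mock replicate 2 for 31 of the 34 members. Within set 1 EZH2 was highest in MT_mock replicate 2.

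P2RY11, the receptor gene joined to PPAN by the read-through transcript, had 1503 to 2061 counts in set 1 and 291 to 365 counts in set 2, and PPAN-P2RY11 had 3071 to 4075 and 556 to 973. All 3 symbols thus had the same order of sets, and their reads cannot be told apart where exons are shared.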
